A study of Homo sapiens with 4 samples.

Results

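The SLC2A family encodes the GLUT proteins, the carriers that let glucose and related sugars cross membranes down their concentration gradient. Described here are 9 SLC2A genes, SLC2A1, SLC2A3, SLC2A4, SLC2A6, SLC2A8, SLC2A10, SLC2A12, SLC2A13 and SLC2A14, out of 18134 genes in the expression table of PC9 cells with and without TPX2 knockdown. They were chosen by symbol, and the choice was made because SLC2A3 was much lower in the knockdown libraries of this same comparison. The values of SLC2A3 are therefore a description and carry no test. SLC2A14 was included because it is the near copy of SLC2A3 and bears on how reads of the pair were assigned.

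PC9 is a human lung adenocarcinoma cell line. Cells were infected with lentivirus carrying a short hairpin RNA against TPX2, a microtubule-binding protein of the mitotic spindle (shTPX2), or a negative control hairpin (shNC), and stable lines were selected with an antibiotic. Poly(A)-selected RNA was sequenced from 2 libraries of each group, all 4 from 1 batch in the labels. The labels name no separate cultures or clones, so the p-values below measure only the spread between these libraries, which may be technical, and they give the knockdown as a single shTPX2 genotype.

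Sugar entry through GLUT proteins is passive, and phosphorylation by a hexokinase then traps glucose inside the cell. GLUT1 (SLC2A1) supplies most proliferating cells, GLUT3 (SLC2A3) is the high-affinity carrier of neurons and many tumours, and GLUT4 (SLC2A4) is the insulin-responsive carrier of muscle and fat. Other members sit mainly on internal membranes or carry other substrates, such as myo-inositol for SLC2A13.

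SLC2A3 and SLC2A14 lie next to each other on chromosome 12, SLC2A3 at chr12:7919230-7936187 and SLC2A14 at chr12:7812514-7891196 in the RefSeq annotation of GRCh38. Their coding sequences are nearly the same. In the GENCODE annotation of GRCh38, the coding sequence of SLC2A3 has 1491 bases and that of SLC2A14 has 1608, and of 1491 aligned bases 1443 were identical (96.8%) and 48 differed. The following 75-base stretch within exon 5 of each gene holds 7 of these differences, shown in capitals, and is given because it is where reads of the pair can be told apart. Both genes are on the minus strand, and the stretch is chr12:7930562-7930636 in SLC2A3 and chr12:7828786-7828860 in SLC2A14, written 5′ to 3′ along the coding strand.
SLC2A3: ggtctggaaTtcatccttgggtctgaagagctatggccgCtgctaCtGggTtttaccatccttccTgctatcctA
SLC2A14: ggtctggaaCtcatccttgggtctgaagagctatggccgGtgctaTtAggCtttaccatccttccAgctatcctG

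Other stretches do not separate the pair at all. The next 75 bases are the same in SLC2A3 (exon 4, chr12:7931311-7931385) and in SLC2A14 (exon 4, chr12:7829832-7829906), with 0 differences, and are shown as the case in which a short read fits both genes.
SLC2A3 and SLC2A14: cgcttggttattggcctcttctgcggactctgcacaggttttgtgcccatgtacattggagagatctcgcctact

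The longest identical run of the aligned coding sequences was 137 bases, shorter than the 150-base reads of the study. Of the 3766 windows of 150 bases in the main SLC2A3 transcript, 69 (1.83%) also occurred in a transcript of SLC2A14, and no other gene held any that SLC2A14 did not. Of the 1724 windows of the SLC2A14 transcript with the compared coding sequence, 0 occurred in another gene. The predicted proteins shared 468 of 496 aligned residues (94.4%).

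Across the whole table, expected-count totals ran from 20906441 to 21972583 per library, and 14048 genes passed the low-count filter, all 9 SLC2A genes among them. TPX2 itself had 55.01 and 111.85 TPM (a length-corrected transcript level with the same total in each library) under shNC and 43.35 and 43.77 TPM under shTPX2. Its log2 fold change, shTPX2 minus shNC, was −0.81 (SE 0.32, edgeR adjusted p = 0.618), and without shNC 2 it was −0.24. Levels of epithelial markers were high in every library (summed TPM 20013 to 27561), while the lung lineage markers NKX2-1, NAPSA, SFTPB, SFTPC and SFTPA1 summed to only 1.43 to 4.04 TPM although the labels give lung adenocarcinoma. Summed TPM of immune markers was 133 and 250 in shNC and 200 and 184 in shTPX2, mostly from CD68, of endothelial markers 19.9 and 32.6 against 31.1 and 36.5, and of fibroblast markers 8.79 and 12.1 against 5.77 and 8.16. Within the endothelial list CDH5, a cadherin of endothelial junctions, had 14.37 and 18.09 TPM in the shNC libraries against 26.71 and 30.51 TPM with shTPX2 (log2 fold change 0.94, SE 0.18, edgeR adjusted p = 0.439, DESeq2 adjusted p = 0.0184). PECAM1 went the other way (−0.79, and 0.073 without shNC 2), and VWF was at most 0.17 TPM. PTPRC, the defining leukocyte marker, was at 0.28 to 0.69 TPM, but CD14 of the same list was at 6.40 to 27.30 TPM. LUM, of fibroblasts, was at 0 in every library, but COL1A1 of the same list was at 5.72 to 11.99 TPM. Their part in the results below was not tested.

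SLC2A3 was far lower in the TPX2 knockdown libraries. It had 7.48 TPM in shNC 1, 10.49 TPM in shNC 2, 0.63 TPM for shTPX2 1 and 0.80 TPM for shTPX2 2. The groups were widely apart, the lower shNC library being 9.35 times the higher shTPX2 library, while the higher of the shNC libraries was 1.40 times the other. The mean was 8.99 ± 2.13 TPM in shNC (SD, n = 2) and 0.715 ± 0.120 TPM in shTPX2 (SD, n = 2). On the count scale the log2 fold change was −3.52 (SE 0.32), an 11.4-fold lower level in shTPX2. Leaving out any 1 library kept it between −3.71 and −3.28. In bulk RNA, fewer cells with the transcript and less transcript per cell cannot be told apart.

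The difference in SLC2A3 remained when reads of its near copy were counted with it. The estimated counts of SLC2A3 were 309.05 and 429.37 in shNC and 27.51 and 33.34 in shTPX2. Those of SLC2A14, a gene best known from testis, were 12.44 and 46.97 in shNC and 9.48 and 10.63 in shTPX2. None of these was a whole number, which is what an estimate that shares reads among transcripts or genes can give, and SLC2A1 and SLC2A8 alone among the members had whole counts in all 4 libraries. SLC2A14 made up 3.87% and 9.86% of the counts of the pair in shNC and 25.6% and 24.2% in shTPX2. The summed counts of the pair were 321.49 and 476.34 in shNC against 36.99 and 43.97 in shTPX2, and with both genes counted as 1 the log2 fold change was −3.22. How the few SLC2A14 counts arose was not tested, and its values are uncertain for that reason.

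SLC2A14 had 0.29 and 1.24 TPM in the shNC libraries against 0.22 and 0.32 TPM with shTPX2. Only shNC 2 stood out, and the TPM ranges of the groups overlapped. The log2 fold change of SLC2A14 was −1.47 (SE 0.72, edgeR adjusted p = 0.674), and it became −0.21 when shNC 2 was left out. SLC2A14 passed the filter level in 3 of 4 libraries.

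**Figure D1:**
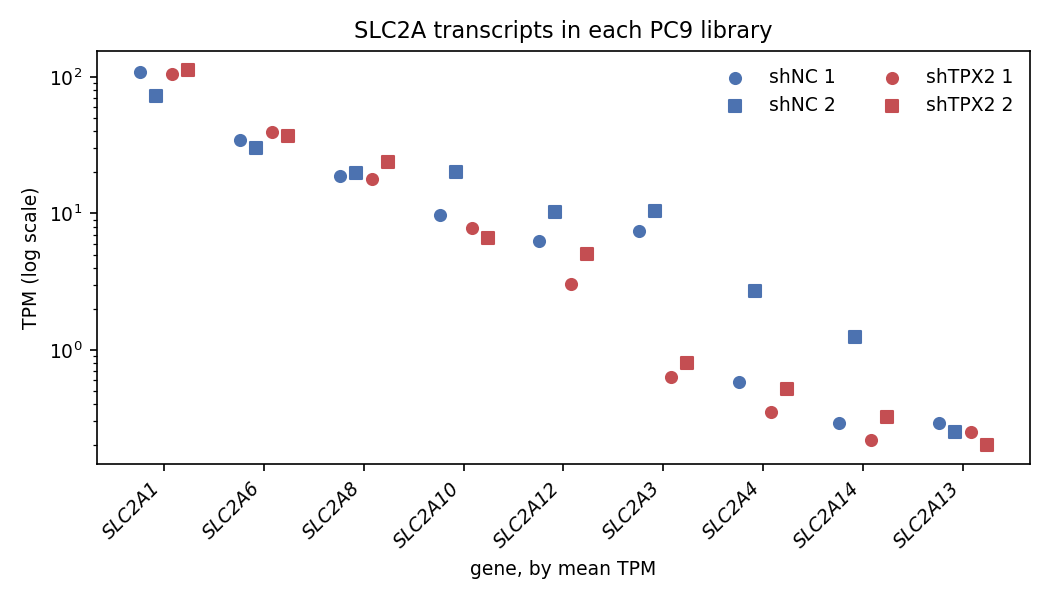
TPM of the 9 SLC2A genes (y axis, log scale) in each of the 4 libraries, genes ordered by mean TPM (x axis), with blue for shNC, red for shTPX2, circles for library 1 and squares for library 2. SLC2A3 is the gene with the widest gap between colours (7.48 and 10.49 against 0.63 and 0.80 TPM), and for SLC2A4, SLC2A10 and SLC2A14 the blue square of shNC 2 stands above the other 3 points.

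SLC2A1, the carrier of basal glucose uptake, was the most abundant of the 9 in every library. It had 108.47 and 72.84 TPM in the shNC libraries against 106.02 and 113.51 TPM with shTPX2. The low value was shNC 2, and shNC 1 lay inside the range of shTPX2. The log2 fold change of SLC2A1 was 0.40 (SE 0.24, edgeR adjusted p = 0.725), with a range from 0.11 without shNC 2 to 0.74 without shNC 1, so no difference was detected beyond the spread between libraries. Per length, the level of SLC2A1 exceeded that of SLC2A3 by 6.94 times in the library where they were closest and by 168 times in the library where they were farthest apart.

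The next most abundant members act largely on internal membranes. SLC2A6, GLUT6, a carrier of lysosomal membranes, had 34.35 and 30.07 TPM in the shNC libraries against 39.43 and 36.66 TPM with shTPX2. Both shTPX2 libraries were above both shNC libraries, by little, with a log2 fold change of 0.35 (SE 0.17, edgeR adjusted p = 0.678). SLC2A8, GLUT8, an intracellular hexose carrier, had 18.73 and 19.79 TPM in the shNC libraries against 18.03 and 23.66 TPM with shTPX2. Its groups overlapped in TPM, and the log2 fold change was 0.31 (SE 0.22, edgeR adjusted p = 0.773).

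SLC2A10 and SLC2A12 were lower in shTPX2 by similar amounts. SLC2A10, GLUT10, the carrier mutated in arterial tortuosity syndrome, had 9.81 and 20.05 TPM in the shNC libraries against 7.79 and 6.62 TPM with shTPX2. The groups did not overlap, but shNC 2 was about as far above shNC 1 as the groups were apart. The log2 fold change of SLC2A10 was −0.92 (SE 0.35, edgeR unadjusted p = 0.0370, adjusted p = 0.608), and without shNC 2 it was −0.32.

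SLC2A12, GLUT12, a relative of GLUT4, had 6.25 and 10.23 TPM in the shNC libraries against 3.05 and 5.08 TPM with shTPX2. Again the groups did not overlap, and shNC 2 and shTPX2 2 were the higher libraries of their groups. The log2 fold change of SLC2A12 was −0.93 (SE 0.37, edgeR unadjusted p = 0.0427, adjusted p = 0.619), with −0.49 without shNC 2 and −1.34 without shTPX2 2. Neither gene passed the adjusted threshold.

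SLC2A4 and SLC2A13 were close to the detection limit. SLC2A4, the insulin-responsive carrier, had 0.58 and 2.70 TPM in the shNC libraries against 0.35 and 0.52 TPM with shTPX2, from 18.96, 88.12, 12.03 and 17.15 estimated counts. The high value of shNC 2 carried the difference, since the log2 fold change of SLC2A4 was −1.79 (SE 0.76, edgeR adjusted p = 0.633) with all libraries and −0.33 without shNC 2. SLC2A13, the proton-coupled myo-inositol carrier, had 0.29 and 0.25 TPM in the shNC libraries against 0.25 and 0.20 TPM with shTPX2. Its log2 fold change was −0.23 (SE 0.45, edgeR adjusted p = 0.922), and at 15.47 to 22.81 estimated counts per library a difference of this size was not detectable.

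**Figure D2:**
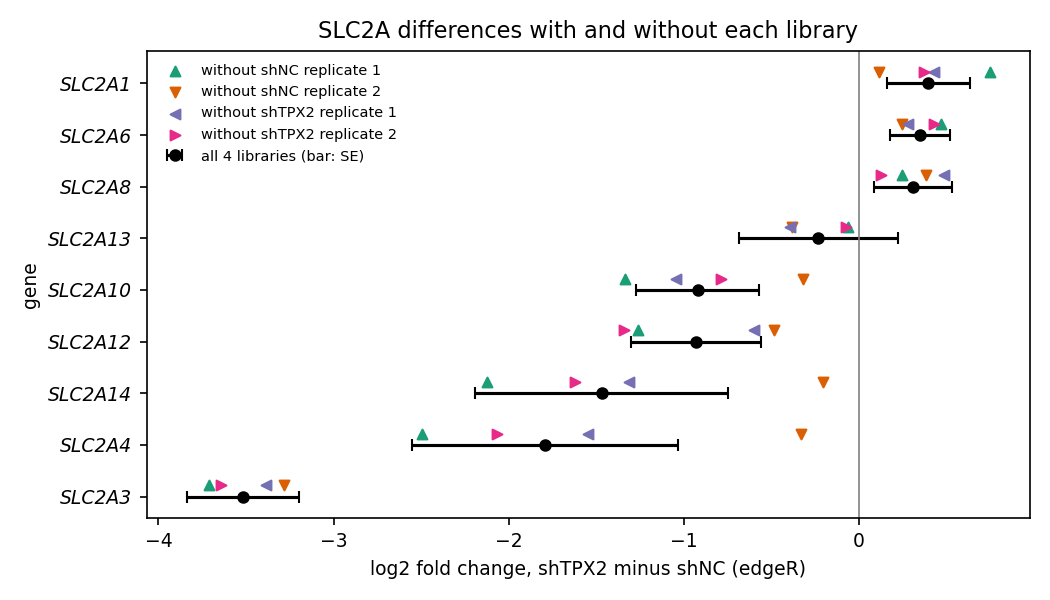
Log2 fold change of each SLC2A gene, shTPX2 minus shNC (x axis), with all 4 libraries (black point, bar 1 SE) and with each library left out in turn (coloured triangles). The triangles of SLC2A3 stay between −3.71 and −3.28, whereas those without shNC 2 (orange) lie nearest to 0 for SLC2A4 (−0.33), SLC2A10 (−0.32), SLC2A12 (−0.49) and SLC2A14 (−0.21).

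Set against all genes, the 8 members other than SLC2A3 gave no call. The edgeR quasi-likelihood test at an adjusted p under 0.05 called 0 of them and 0% of all genes tested, so this threshold called no gene of the table. At an unadjusted p under 0.05 edgeR passed 2 of the 8, SLC2A10 and SLC2A12, both lower, beside 8.03% of all genes (4.9% lower and 3.13% higher), and DESeq2 at an adjusted p under 0.05 called 0 of the 8 beside 0.79% of all genes. The criteria of the study name a p of up to 0.1 and a log fold change from 0.3, read here as an unadjusted limma p and a log2 difference in either direction, since neither the log base nor an adjustment is stated. They were met by 3 of the 8, SLC2A10 and SLC2A12 lower and SLC2A6 higher, beside 14.2% of all genes (7.99% lower and 6.24% higher). These 3 calls depended on the libraries used. Without shNC 2 the log2 fold changes were −0.32 for SLC2A10, −0.49 for SLC2A12 and 0.24 for SLC2A6. Over all genes tested, the number meeting the criteria also changed with the library left out.

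SLC2A3 met the criteria of the study and the DESeq2 threshold as well, which follows from how it was chosen. On the log2 CPM scale (counts scaled to a common library size) the groups did not overlap for 7 of the other 8 members, 4 lower and 3 higher, beside 39.6% of all genes (20.2% lower and 19.4% higher). On the TPM scale they did not overlap for 4 of the 8, 3 lower and 1 higher, beside 41.0% of all genes (30.3% lower and 10.7% higher). The scales differed for SLC2A1, SLC2A8 and SLC2A14, which overlapped only in TPM. The median log2 fold change of the 8 members other than SLC2A3 was −0.58, beside −0.0085 over all genes tested, and it was −0.26 without shNC 2 and −0.66 without shNC 1. Of the 8, 5 were below 0 beside 51.1% of all genes and 3 above 0 beside 48.9%. With SLC2A3 included the median was −0.92, and −0.32 without shNC 2.

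The shNC libraries differed from each other more than the shTPX2 libraries did for 7 of the 9 members. From shNC 1 to shNC 2 the log2 difference was 2.07 for SLC2A4, 1.78 for SLC2A14, 1.03 for SLC2A10 and 0.79 for SLC2A12, and −0.61 for SLC2A1. Over all genes tested the median size of that difference was 0.28, against 0.23 between the shTPX2 libraries. The shNC pair thus lay further apart in the whole table as well, and the share of all genes for which it did was not counted. Only 0.826% of genes had a larger shNC difference than SLC2A4 and 1.35% a larger one than SLC2A14. TPX2 was itself 0.98 higher in shNC 2 on the same log2 scale. For SLC2A3 the same difference was 0.44, small beside its gap between groups.

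The summed level of the family stayed within a narrow range. The 9 members together had 186.25 and 167.66 TPM in the shNC libraries against 175.77 and 187.37 TPM with shTPX2, and the groups overlapped. SLC2A1 made up 58.2% and 43.5% of the sum in shNC and 60.3% and 60.6% in shTPX2. SLC2A3 made up 4.02% and 6.26% in shNC and 0.358% and 0.427% in shTPX2, so the gene with the widest gap was a minor part of the total. Ordered by level, SLC2A1, SLC2A6 and SLC2A8 led in every library except shNC 2. There SLC2A10 (20.05 TPM) lay just above SLC2A8 (19.79 TPM), a gap that was not tested.

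The other SLC2A genes in the table added little. SLC2A2, SLC2A5, SLC2A7 and SLC2A9 had at most 0.38 TPM in any library and were not tested. SLC2A11, a fructose and glucose carrier, had 16.48 and 15.32 TPM in the shNC libraries against 14.90 and 15.49 TPM with shTPX2, with a log2 fold change of 0.05 that became −0.02 when scaled by library size only.

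Of the genes beside SLC2A3 on chromosome 12 that could be tested, FOXJ2, NECAP1 and NANOG did not show a fall like that of SLC2A3. SLC2A14, its direct neighbour, was lower (log2 fold change −1.47, and −0.21 without shNC 2). FOXJ2, a forkhead transcription factor, had 19.77 and 28.34 TPM in the shNC libraries against 23.85 and 18.48 TPM with shTPX2 (log2 fold change −0.05). NECAP1, an endocytosis adaptor, had 20.98 and 22.03 TPM in the shNC libraries against 21.60 and 20.23 TPM with shTPX2 (log2 fold change 0.08). NANOG, a pluripotency factor with a known set of pseudogenes, was at 0.49 and 0.97 TPM in the shNC libraries against 0.60 and 0.56 TPM with shTPX2. The other 6 neighbours besides SLC2A14, APOBEC1, CLEC4C, NANOGNB, C3AR1, CLEC4A and ZNF705A, were too low to be tested with all 4 libraries. CLEC4A had 4 and 14 counts in the shNC libraries against 2 and 2 with shTPX2. It was at −2.64 without shNC 1, −2.01 without shTPX2 1 and −2.03 without shTPX2 2. It passed the filter in these fits only through the 14 counts of shNC 2, so the values all rest on that library.

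The genes with the profile nearest to that of SLC2A3 over the 4 libraries, by Euclidean distance of centred log2 values, were MAP9, LOC79999, IFI16, FLRT3 and TBC1D3. The distances ran from 0.569 for MAP9 to 0.791 for TBC1D3. IFI16, an interferon-inducible DNA sensor, had 3.65 and 3.81 TPM in the shNC libraries against 0.43 and 0.31 TPM with shTPX2, and FLRT3, a membrane adhesion protein, had 1.40 and 2.81 TPM against 0.17 and 0.30 TPM. MAP9, a microtubule-associated protein, had 0.35 and 0.28 TPM against 0 and 0.02 TPM. LOC79999 and TBC1D3, the latter one of several near-identical copies, were listed at 0 in both shTPX2 libraries. The log2 fold changes were −5.14 for MAP9, −6.62 for LOC79999 and −6.84 for TBC1D3, against −3.52 for SLC2A3, −3.18 for IFI16 and −3.04 for FLRT3. A small count added before the log2 sets a floor for genes at or near 0 counts. That floor shortens the distance of MAP9, LOC79999 and TBC1D3, which passed the low-count filter through shNC alone.

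Genes that work with the GLUT carriers were read the same way, and edgeR called 0 of them at an adjusted p under 0.05. At an unadjusted p under 0.05 it passed 2 of the 5 tested sugar carriers of other families, 4 of 17 trafficking genes and 0 of the other 3 lists. Over all genes tested that share was 8.03%. The criteria of the study were met by 40% of the sugar carriers and 29.4% of the trafficking genes. For transcription factors it was 7.14% and for lactate handling 16.7%, beside 14.2% of all genes. Of the sugar carriers, SLC5A10, a sodium-coupled carrier, had 0.92 and 0.69 TPM in the shNC libraries against 0.21 and 0.27 TPM with shTPX2 (log2 fold change −1.66, SE 0.53, edgeR adjusted p = 0.579), and SLC45A1 had 2.15 and 3.61 TPM against 1.02 and 1.01 TPM (−1.37, SE 0.43, adjusted p = 0.579). These 2 met the criteria of the study as lower (SLC45A1 alone when either shTPX2 library was left out), and 4 of the 5 were below 0, with a median of −0.14. SLC5A11, a myo-inositol carrier (log2 fold change 0.43, and −0.055 without shTPX2 2), and SLC50A1 (−0.14), the human SWEET sugar carrier, met no threshold.

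Of 8 tested enzymes that act on hexoses or hexose phosphates, 3 met the criteria of the study as higher and none as lower. At an unadjusted p under 0.05 edgeR passed 0 of the 8. The list includes G6PC3 (log2 fold change 0.19), a phosphatase that removes the phosphate from glucose 6-phosphate. All 8 log2 fold changes were above 0, with a median of 0.25, but GALK1, galactokinase, was at 0.00021. It was at −0.071 with library size only, −0.23 without shNC 1 and −0.36 without shTPX2 2, and 7 of the 8 were above 0 in each of those fits. HK2, the inducible hexokinase, had 10.87 and 15.63 TPM in the shNC libraries against 15.15 and 19.51 TPM with shTPX2. HK2 (log2 fold change 0.50), HKDC1 (0.39) and KHK, ketohexokinase (0.64), met the criteria of the study as higher. With library size only KHK alone did, and without shNC 1 or without shTPX2 2 no gene of the list did. GPI, which isomerizes glucose 6-phosphate, was at 0.27 and met neither threshold. The share meeting the criteria was 37.5% of the list, beside 14.2% of all genes.

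Among the 17 genes that move GLUT carriers to and from the cell surface, 8 were above 0 and 9 below, with a median of −0.01. TXNIP, an arrestin that drives internalization of GLUT1, had 257.99 and 566.94 TPM in the shNC libraries against 171.20 and 163.06 TPM with shTPX2. Its log2 fold change was −1.18 (SE 0.35, edgeR adjusted p = 0.579) and −0.53 without shNC 2. The Rab GTPase-activating proteins TBC1D4 (−0.50) and TBC1D1 (−0.57, and −0.25 without shNC 2) were lower by the criteria of the study, and RAB8A (0.41) and the retromer subunit VPS29 (0.33) were higher. With either shTPX2 library left out TXNIP alone met these criteria, and without shNC 2 TXNIP, TBC1D4 and RAB8A did.

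Transcription factors known to act on SLC2A genes centred near 0, with 6 of 14 above it and a median of −0.024 (from 4 to 9 of 14 above it with 1 library left out). HIF1A, the hypoxia-inducible factor, had 200.05 and 227.60 TPM in the shNC libraries against 200.03 and 180.82 TPM with shTPX2 (log2 fold change −0.042, and from −0.13 to 0.056 with 1 library left out). MLXIPL, the glucose-sensing factor ChREBP, was the 1 gene of the list that met the criteria of the study (−0.91, and −0.34 without shNC 2), and it met them in none of the fits without shNC 2 or without an shTPX2 library. MYC had 52.43 and 47.71 TPM in the shNC libraries against 84.31 and 46.58 TPM with shTPX2, so its log2 fold change of 0.52 came from shTPX2 1 and was 0.0048 without it. MLX, the partner of ChREBP (0.34), and MEF2A, a regulator of SLC2A4 in muscle (−0.31), met no threshold with all 4 libraries. Both moved with the library left out. MLX was at 0.55 without shTPX2 1 and 0.099 without shTPX2 2, and MEF2A at −0.49 and −0.13 in the same fits. Of the 6 genes of lactate handling, 5 were above 0 with a median of 0.09, and SLC16A3, the lactate exporter MCT4, met the criteria as higher (0.33), which held without shNC 1 and in no other fit with a library left out. The lactate dehydrogenase subunits LDHA (0.27) and LDHB (0.10) did not. SLC16A7, another lactate carrier, was at −0.28 and turned with the shNC library left out, to 0.56 without shNC 2 and −0.80 without shNC 1, meeting the criteria in both fits.

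**Figure D3:**
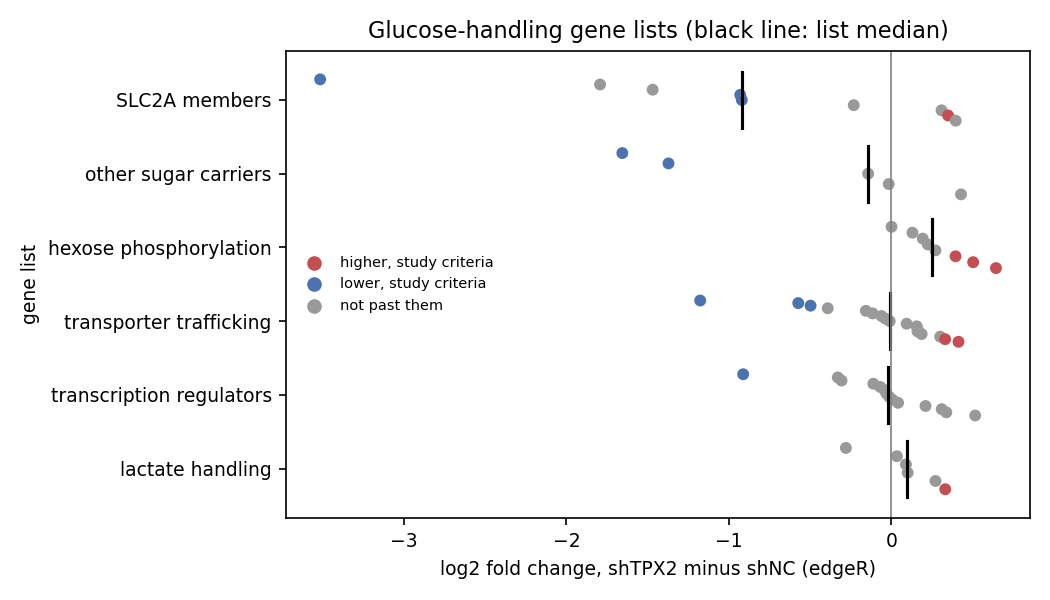
Log2 fold change, shTPX2 minus shNC (x axis), of each tested gene in the SLC2A members and 5 lists of glucose-handling genes (rows), with blue and red for genes meeting the criteria of the study as lower and higher, grey for the rest and a black line for the list median. SLC2A3 (−3.52) is the point farthest from 0, the median of the members is −0.92 (−0.58 without SLC2A3, and −0.32 for all 9 when shNC 2 is left out), and those of the other lists run from −0.14 to 0.25.

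The deposited table also lists a mean for each group, and these did not equal the means of the 2 listed libraries. For TPM they matched within rounding in 5.24% of genes for shNC and 4.97% for shTPX2. Multiplied by 3 for shNC and by 4 for shTPX2 they gave whole hundredths for 100% of the 18134 genes, as sums over 3 and 4 libraries would. With the listed libraries taken off, the TPM left over totalled 1000000 for shNC and 2000000 for shTPX2, as 1 and 2 further libraries would. The further libraries were not analysed here. The authors' mean TPM of SLC2A3 was 12.75 in shNC and 8.20 in shTPX2, where the 2 listed libraries averaged 8.99 and 0.715. The authors' shTPX2 mean was thus 10.25 times the higher of the listed shTPX2 libraries. If it covers further libraries besides the listed ones, some of these must lie above 8.20 TPM, while shNC 1 had 7.48 TPM and shNC 2 had 10.49 TPM. A fall in SLC2A3 like that of the listed shTPX2 libraries would then be absent from at least some of the further ones. Both the size of the SLC2A3 difference above and its near loss in shTPX2 therefore hold for the 4 listed libraries only.

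For the other members the authors' means kept the order of the groups seen in the listed libraries except for SLC2A13, at 0.447 TPM in shNC and 0.608 TPM in shTPX2 by the authors' means. They were 96.7 and 115 TPM for SLC2A1, 9.98 and 3.70 TPM for SLC2A10, and 6.74 and 3.17 TPM for SLC2A12. In all 18134 genes, 3 times the shNC mean and 4 times the shTPX2 mean were no less than the listed sums, within rounding. Means that include the listed libraries, with unequal weight in the groups, would give this. The kept order is therefore no separate support for the differences in the listed libraries. The means carry no spread and were used in no test.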

How the data were processed

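RNA of 4 PC9 libraries, 2 shNC and 2 shTPX2, was analysed from 1 gene table. The study's methods name SOAPnuke, HISAT2/Bowtie2 and RSEM or StringTie, while the submitters' processing notes name HISAT2, featureCounts, DESeq2 and GRCh38. From 42.2% to 44.6% of genes per library had a count that was not whole (tolerance 0.005), and the authors deposited these values as an expected count per gene, with no depth normalization. The authors also deposited FPKM, divided by length and depth, and TPM, which adds up to an equal sum per library. Strand setting and annotation are not given in the sources used here.

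Expected counts were rounded and fitted with edgeR 4.0.16 (filterByExpr, TMM, quasi-likelihood test, Benjamini-Hochberg adjustment over 14048 genes) in R 4.3.3. The study's criteria, with p read as unadjusted and the fold change as log2, were applied with limma 3.58.1 (voom), and DESeq2 1.42.0 was an alternative. SEs are the log2 fold change over the root of its F statistic. The common dispersion was 0.0485, so the spread between libraries limits the precision of all but weak genes. The scripts were tested on simulated data. Coding sequences were aligned with Biopython 1.88 on GENCODE v29 transcripts. A log2 fold change on TPM used log2(TPM + pseudocount), with 1 and 0.1, which understates changes of low genes.

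Members and gene lists were chosen with earlier results of these data known. The text names TPX2, the members, other SLC2A genes, the neighbours and nearest profiles of SLC2A3, and, from each list of glucose-handling genes, those that met the study's criteria and the up to 4 with the smallest edgeR p. HIF1A, GALK1, G6PC3 and the single cell type markers named fall outside this rule and were chosen after their values were seen.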

Additional observations from a re-analysis of the deposited data

How the results depend on the processing

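The 2 libraries per group limit every call, and 2 against 2 libraries cannot pass 0.05 in a permutation test. When 1 library was left out, the lone library was assumed to vary like the other group. The number of SLC2A members called by edgeR at an adjusted p under 0.05 was 0 with all libraries, beside 0% of all genes tested. DESeq2 called SLC2A3 alone, beside 0.79% of all genes, which follows from how SLC2A3 was chosen. With 1 library left out its log2 fold change ran from −3.71 to −3.28. The number meeting the criteria of the study was 4 with all libraries, SLC2A3 included, beside 14.2% of all genes. It changed with the library left out, and so did the number over all genes tested. These changes are therefore not read as particular to the SLC2A genes. With the replicate number as a block it was 7, and the share of all genes in that fit is not given here. Same-numbered libraries deviated together with a correlation of 0.182 over 14048 genes, but with 2 pairs and no label that ties them the numbers were not taken as pairs, and the block changed no edgeR call. Over all genes tested, 876 met the criteria as higher and 1122 as lower with TMM (43.8% higher), and 578 and 1445 with library size only (28.6% higher), where SLC2A6 no longer met them. The log2 ratio of summed TPM (shTPX2 over shNC) was 0.037 and ranged from −0.037 without shNC 2 to 0.115 without shNC 1, with 0.107 without SLC2A3 and 0.0915 as summed FPKM. Of 118 alternative values for the 8 members other than SLC2A3, 0 changed sign and 0 had an adjusted p under 0.05 (smallest 0.0791), but 19 were over 1.5 times larger or smaller than the value with all libraries, 13 of them with a library left out. Of 15 for SLC2A3, 3 moved by more than the pooled SD of its log2(TPM + 1) within groups, and the causes were not tested. They were −3.28 without shNC 2, −3.22 with SLC2A14 added and −2.53 as log2(TPM + 1). That SD is on another scale than the count-based fold changes and is compressed at low TPM, so it is a rough yardstick. A minimum of 10 counts in every library removed SLC2A14. Leaving out libraries and other scalings for the lists of glucose-handling genes were added after seeing the data, and edgeR called 0 of their genes in each of these fits.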
